A study of Arabidopsis thaliana with 66 samples.

Results

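Whole wild-type flowers of Arabidopsis thaliana at stage 12 were compared with whole flowers at stage 10/11, to see which transcripts rose and which fell between these steps of bud development. The arrays were chosen by their tissue label: 3 arrays for stage 12 and 3 for stage 10/11, which are 6 of the 66 arrays of a survey of flowers, floral organs and pollen in 22 groups. Both stages came from Col-0, the standard laboratory accession, without a mutation or treatment, grown on soil in continuous light at 23 °C and 65% relative humidity. Total RNA was labelled with biotin and hybridised to arrays with 22810 probe sets. The sources used here do not say whether the 3 arrays of a stage came from separate plants or how many flowers were pooled. The p-values measure only the spread between arrays of the same group, estimated over all 66 arrays in 22 groups. Whether that is a spread between plants is not known. The stage 10/11 arrays carry sample letters with the number 2 appended and the stage 12 arrays plain letters, so if the added number marks a separate batch, its effect and that of stage cannot be told apart.

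At the bud stages compared here, the anther passes from making pollen walls to maturing pollen. The tapetum, the innermost layer of the anther wall, feeds the developing pollen, secretes wall and coat material and then breaks down. Pollen grains meanwhile divide to form sperm and store transcripts for germination and tube growth. In the carpel the style, the transmitting tract and the ovules approach maturity, and petals expand toward opening. Floral stages are defined by landmarks of bud morphology, not by age.

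Each value below is a signal on a linear scale, set to a common trimmed mean in every array. A signal of 22.61, the 40th percentile of all values, served as the floor under which a probe set was treated as not detected. A probe set was called when it differed at least 2-fold and its Benjamini-Hochberg adjusted p from limma was below 0.05 over the 17646 probe sets tested; rose and fell are used only of such probe sets. Replicate arrays correlated at 0.990 to 0.993 across probe sets in stage 12 flowers and at 0.991 to 0.994 in stage 10/11 flowers. Between 14299 and 14575 probe sets lay above the floor in stage 12 arrays, against 13995 to 14048 in stage 10/11 arrays. The genes for the stamen regulator AMS and the carpel regulators SPT and INO were above the floor in all 6 arrays. Among other marker genes of floral tissues, BAN of the ovule and ANX1 of pollen were below the floor in all 6 arrays. The pollen genes MGH3 and PLIM2a were above it in all stage 12 arrays and below it in all stage 10/11 arrays. The floral organ identity genes AP1, AP3, PI, AG and SEP3 have no probe set that pairs with a single gene in the annotation used and are not analysed here.

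Among changes of at least 2-fold, increases outnumbered decreases. Of the probe sets tested, 865 rose (4.9%) and 242 fell (1.37%), together 1107 (6.27%). By a limma adjusted p below 0.05 alone, without the fold cutoff, 2955 were higher and 3194 lower. The excess of increases therefore depends on the fold cutoff. In every one of the 1107 the 3 stage 12 arrays lay on one side of the 3 stage 10/11 arrays, without overlap. The same arrays made the calls, so this separation is a description. The median log2 fold change over all probe sets tested was -0.04. Among the increases 567 were between 2-fold and 4-fold, and 43 were 16-fold or more. Among the decreases 173 were between 2-fold and 4-fold, and 20 were 16-fold or more. Folds are on the scale of log2(signal + 11.31) and understate the change of dim genes.

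**Figure D1:**
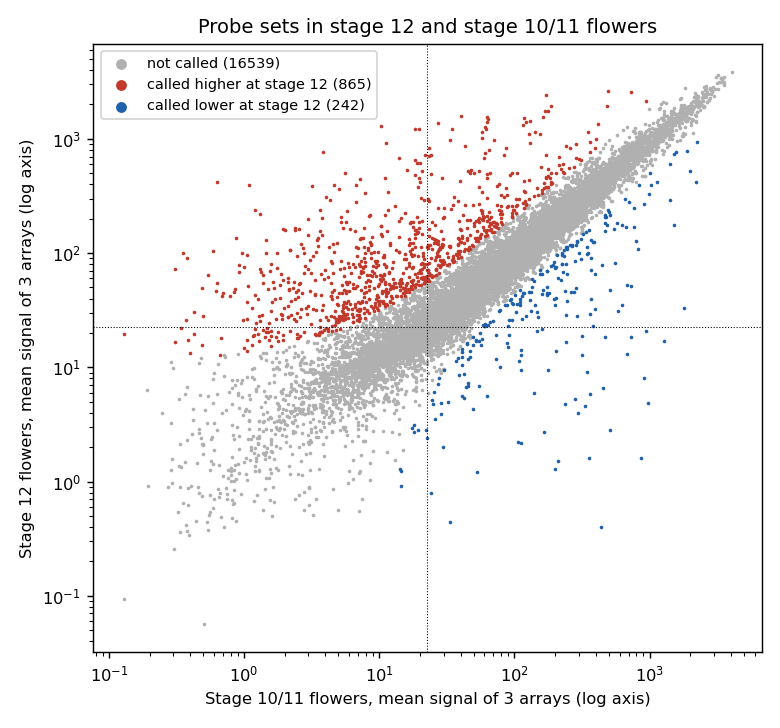
Mean signal of 3 arrays in stage 12 flowers (vertical, log axis) against stage 10/11 flowers (horizontal, log axis) for the 17646 probe sets tested. Red points are the 865 called higher and blue points the 242 called lower at stage 12; dotted lines mark the floor of 22.61. Many of the red points lie left of the vertical dotted line.

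Most of the genes that rose were not detected at stage 10/11. At stage 10/11, 527 of the 865 (60.9%) were at or below the floor in all 3 arrays, and 663 were so at stage 9, a group of 3 further whole-flower arrays. Above the floor in all 3 stage 10/11 arrays were 267 of the 865, against 76.5% of all probe sets tested. The median signal over all 865 was 84.1 in stage 12 flowers, against 12.5 in stage 10/11 flowers. For 29 of them all arrays of both stages lay at or below the floor, so no fold can be given. Among the genes that fell, 84 of 242 (34.7%) had all 3 stage 12 arrays at or below the floor, and the median over all 242 was 35.2 in stage 12 flowers, against 189 in stage 10/11 flowers. The arrays of stages 12 and 10/11 chose all these genes, so the shares and medians at these stages are a description.

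The genes that rose were mainly stamen genes. The dissected sepals, petals, stamens and carpels of stage 12 flowers, 3 arrays each and none of them part of the comparison, were used to place each probe set. Stamens gave the highest mean for 693 of the 865 that rose (80.1%), against 25.5% of all probe sets tested. By the stricter measure, at least 2-fold and called against each other organ, 644 of those that rose (74.5%) were enriched in stamens, against 9.58% of all tested. A further 49 were enriched in carpels, 46 in sepals and 18 in petals, which are 5.66%, 5.32% and 2.08% of those that rose, against 5.07%, 6.79% and 1.67% of all tested. The 644 are 38.1% of the 1691 probe sets enriched in stamens. Of the same 1691, 47 fell, and the median log2 fold change of the whole set was 0.68. The medians of the other sets were 0.09 for petals (294 probe sets), -0.02 for sepals (1199) and -0.18 for carpels (894). In whole flowers, a larger share of stamen or pollen cells and more RNA per such cell cannot be told apart.

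The genes that fell were spread differently. Of the 242, 47 (19.4%) were enriched in stamens, against 9.58% of all tested. A further 15 were enriched in sepals, 9 in carpels and 3 in petals. The other 168 (69.4%) were enriched in no organ, against 76.9% of all tested. Many were not detected in any organ: 79 (32.6%) lay at or below the floor in all 12 arrays of the dissected stage 12 organs, against 7.29% of all tested. Of the 84 that were at or below the floor in whole flowers of stage 12, 68 were also at or below it in all 12 organ arrays. The organs came from flowers of stage 12, where these genes were chosen for being low. Low signals in the organs therefore follow in part from that choice. The organ arrays cannot show in which organ these genes were expressed at the earlier stage.

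**Figure D2:**
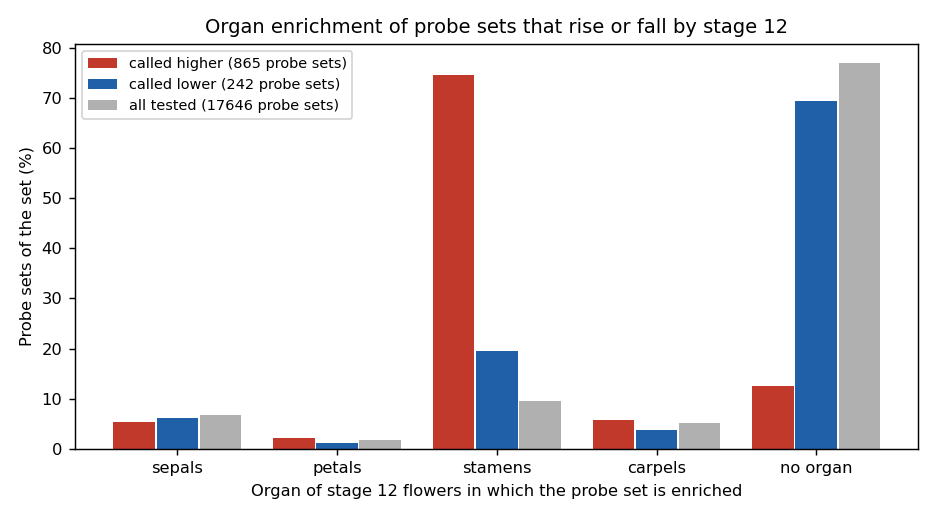
Share of probe sets (%) enriched in each organ of stage 12 flowers, for the 865 called higher, the 242 called lower and all 17646 tested; a probe set counts for an organ when it is called higher there than in each of the other organs. Stamens take 74.5% of those that rose, 19.4% of those that fell and 9.58% of all tested.

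Most of the genes that rose were also detected in mature pollen, a separate group of 3 arrays. Of the 865 that rose, 609 (70.4%) were above the floor in all 3 pollen arrays, against 54.0% of all tested and 31.4% of those that fell. Of the 644 enriched in stamens, 547 (84.9%) were above the floor in pollen. That share was 81.6% over all 1691 stamen-enriched probe sets.

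Among named genes with the largest increases, 14 of 15 were enriched in stamens. AT3G28780 had signals of 916, 891 and 929 in stage 12 flowers, against 14.6, 14.7 and 4.61 in stage 10/11 flowers. All stage 10/11 arrays were below the floor, so the increase was at least 40.3-fold (log2 fold change 5.39, SE 0.14, adjusted p = 4.85e-38). Its mean was 4256 ± 173 (SD, n = 3) in stamens and 1.91 ± 1.02 in carpels. AT3G07820 had 1182, 1223 and 1268 in stage 12 flowers, against 15.4, 23.8 and 19.9 in stage 10/11 flowers (log2 fold change 5.32). These groups stood far apart, with 1 stage 10/11 array just above the floor. AT1G10770 had 695, 689 and 669.6 in stage 12 flowers, against 12.8 to 15.1 in stage 10/11 flowers, at least 30.3-fold. The annotation used gives these loci no name. The other unnamed loci among the 15 were AT3G28840, AT5G07420, AT3G28750, AT5G47000, AT4G02250, AT5G26700, AT5G61720, AT2G19000, AT3G01240 and AT3G01270, with log2 fold changes of 4.40 to 5.16.

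**Figure D3:**
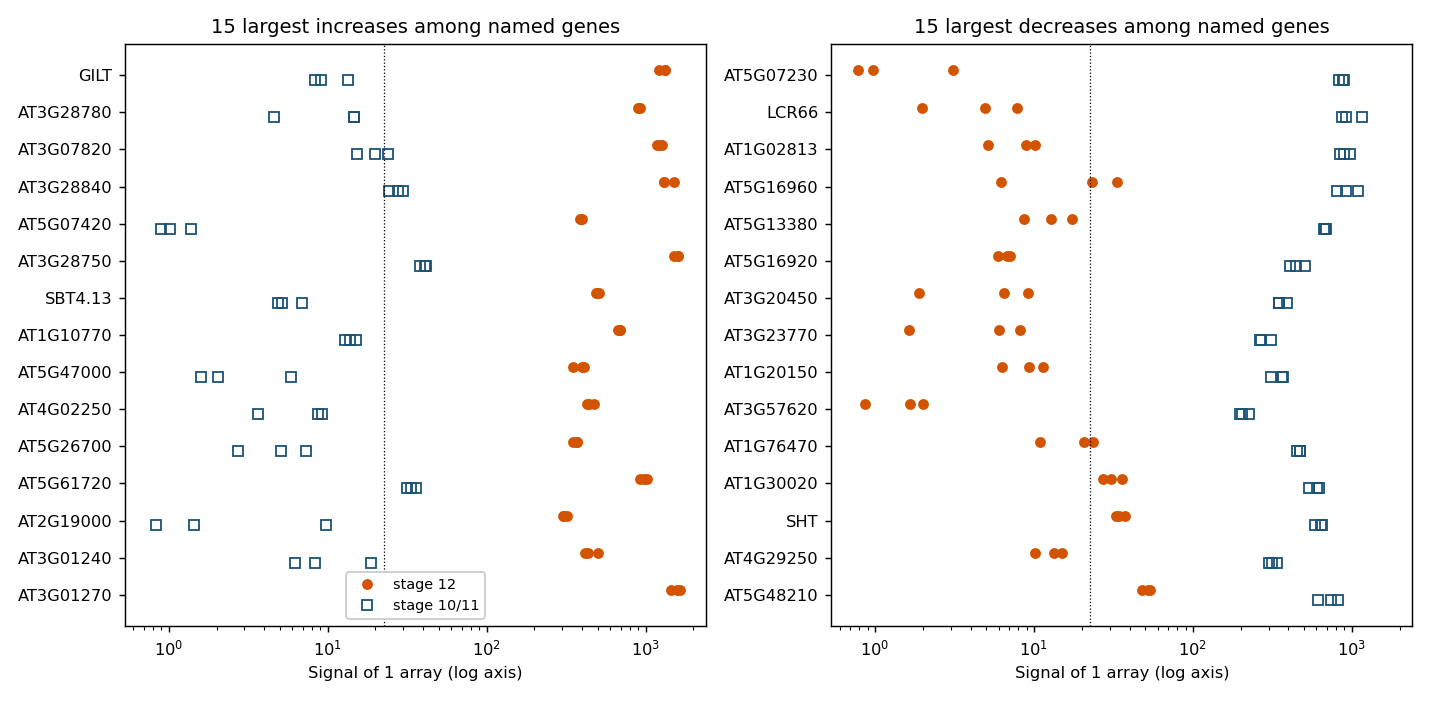
Signal of each array (log axis) for the 15 named genes with the largest increases (left) and the 15 with the largest decreases (right). Filled circles are the 3 stage 12 arrays and open squares the 3 stage 10/11 arrays; the dotted line is the floor of 22.61, and in no gene do the groups overlap.

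After stage 12 some of the increases lasted and others did not, as 3 arrays of whole flowers at stage 15 showed. Of the 865 that rose, 613 were above the floor in all stage 15 arrays and 215 at or below it in all of them. Of all probe sets tested, 77.6% were above the floor in all stage 15 arrays. The stage 12 mean was the highest of the means at stages 9, 10/11, 12 and 15 for 433, and the stage 15 mean for 430; since the stage 12 and 10/11 arrays chose these genes, this order is a description. AT3G28840 averaged 1376 ± 118 at stage 12 and 17.5 ± 1.82 at stage 15, below the floor. AT3G28750 averaged 1569.5 ± 59.9 at stage 12 and 1612 ± 72.3 at stage 15. Both had high signals in mature pollen, at 5518 ± 2150 and 18593 ± 1326. Among the stamen-enriched probe sets that rose and were above the floor in pollen, 347 were above it at stage 15 and 172 below it.

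About as many tested genes of mature pollen and the pollen tube rose as did not. The list of known pollen genes had 78 loci, of which 40 had a probe set for a single gene and 33 passed the filter on dim signals. Of these 33, 17 rose and 1 fell, against 4.7% and 1.43% of the 9709 named genes tested. The list's median log2 fold change was 1.04, against -0.04 for all probe sets tested. It was 2.36 without a pseudocount and 1.71 with a fit on the compared arrays alone, which tested 14422 probe sets. With a pseudocount equal to the floor it was 0.75, and with quantile normalization 0.91. Leaving out stage 12 replicate 3 gave 0.994, and leaving out stage 10/11 replicate 2 gave 0.997. Of the 17 that rose, 16 were enriched in stamens, 17 were above the floor in pollen and 14 were at or below the floor in all stage 10/11 arrays. The summed signal of the 33 was 2530 to 2760 in stage 12 arrays, against 919 to 943 in stage 10/11 arrays. It reached 16907 to 18022 in stamens and 104548 to 117481 in pollen.

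The sugar transporter gene AtVEX1, also called SWEET5, is named for the vegetative cell of pollen. Its signals were 477, 429.7 and 464 in stage 12 flowers, against 19.1, 21.1 and 19.1 in stage 10/11 flowers, at least 20.2-fold (adjusted p = 2.47e-24). It was highest in stamens (1961 ± 101) and pollen (1098 ± 544), with means of 124 in petals and 74.2 in sepals, and was below the floor at stage 15. CHX19, a cation/proton exchanger, had 183, 146 and 149 in stage 12 flowers, against 17.7, 15.2 and 22.1 in stage 10/11 flowers, at least 7.05-fold, and was again below the floor at stage 15. CHX15, of the same family, rose to 37.1 ± 1.31, against a level below the floor, and CHX20 to 55.6 ± 14, against 17.4 ± 6.91. CHX20 was high in stamens (352 ± 27.1) and below the floor in pollen, unlike CHX15 and CHX19, which averaged 941 and 366 in pollen. In all, 3 of 5 tested exchanger genes rose, against 4.7% of the named genes tested; the call on CHX20 was lost with a pseudocount equal to the floor (0.96).

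The peptide genes RALFL25 and RALFL26, which belong to a family of secreted signals, changed together and lie next to each other on the chromosome. RALFL26 had 139, 141 and 128 in stage 12 flowers, against 0.892, 0.587 and 1.14 in stage 10/11 flowers, at least 6.01-fold. RALFL25 had 119.9, 96.6 and 145 in stage 12 flowers, against 2.67, 3.75 and 1.55 in stage 10/11 flowers. Both went on to higher means at stage 15, at 770.0 ± 59.6 for RALFL26 and 422 ± 42.7 for RALFL25. The other 8 tested RALF-like genes were not called, so 2 of 10 rose, against 4.7% of the named genes tested. Cross-hybridisation between such similar neighbours was not tested. Receptor kinase genes for the integrity of the growing tube, ANX1 and ANX2, gave weak signals. ANX2 had 29.2, 28.7 and 26.6 in stage 12 flowers, against 0.283 to 0.706 in stage 10/11 flowers. ANX1 was below the floor in all 6 arrays, and its call was lost with a pseudocount equal to the floor (log2 fold change 0.78) and with quantile normalization (0.98).

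Cytoskeletal genes moved unevenly. Of 31 tested genes for actin, tubulin, myosin and their binding proteins, 7 rose and 0 fell, against 4.7% and 1.43% of the named genes tested. The list's median was 0.28. PLIM2a, which binds and bundles actin filaments, had 176, 147 and 169 in stage 12 flowers, against 6.92, 5.82 and 5.49 in stage 10/11 flowers, at least 7.25-fold. Its relative PLIM2b had 152, 149.6 and 173 in stage 12 flowers, against 36.2, 43.0 and 42.3 in stage 10/11 flowers (log2 fold change 1.71). The groups did not overlap in either gene. The myosin genes XIE (log2 fold change 2.07) and XIC (1.69), the actin gene ACT12 (1.62) and the tubulin genes TUA1 (1.06) and TUB1 (1.04) also rose. With a pseudocount equal to the floor TUA1 (0.99) and TUB1 (0.92) were no longer called. XIE averaged 157 ± 14.9 at stage 12 and 16.8 ± 3.49 at stage 15. The tubulin gene TUA6 averaged within a log2 fold change of 0.03 and was not called (adjusted p = 0.735).

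Of 8 tested pectin and pollen tube wall enzymes, AT59 and ADPG1 rose and 0 fell, with a median of 0.36, against 4.7% of named genes called higher. PMEPCRF (0.44) was not called, nor was PMEAMT (0.58), which the list holds by its name but which is annotated as a phosphoethanolamine N-methyltransferase. AT59, a pectate lyase gene of pollen, had 61.2, 57.9 and 56.5 in stage 12 flowers, against 4.60, 0.468 and 0.781 in stage 10/11 flowers, at least 2.59-fold, and went on to 399 ± 31.6 at stage 15. GH9A4, a family 9 glycosyl hydrolase, averaged 93.9 ± 4.18 at stage 12, against a level below the floor, and 385 ± 9.81 at stage 15. EXPA24, an expansin, which loosens cell walls, averaged 78.8 ± 6.92, against a level below the floor, and was back below it at stage 15. The MADS-box regulators AGL104 (log2 fold change 1.97) and AGL66 (1.80) were the only called members among 15 tested AGAMOUS-like genes, and both act in pollen. Of the named genes tested, 4.7% rose and 1.43% fell. Without a pseudocount 4 members were called higher, as AGL18 (1.05) and AGL29 (2.36) passed too. MGH3, a histone H3 of the male gametes, had 59.1, 72.1 and 78.1 in stage 12 flowers, against 12.0, 2.94 and 7.04 in stage 10/11 flowers, at least 3.08-fold. Its stage 15 mean was 18.3 ± 5.0, below the floor. LCR72, a gene for a small cysteine-rich protein named here after its values were seen, was at least 9.12-fold higher.

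**Figure D4:**
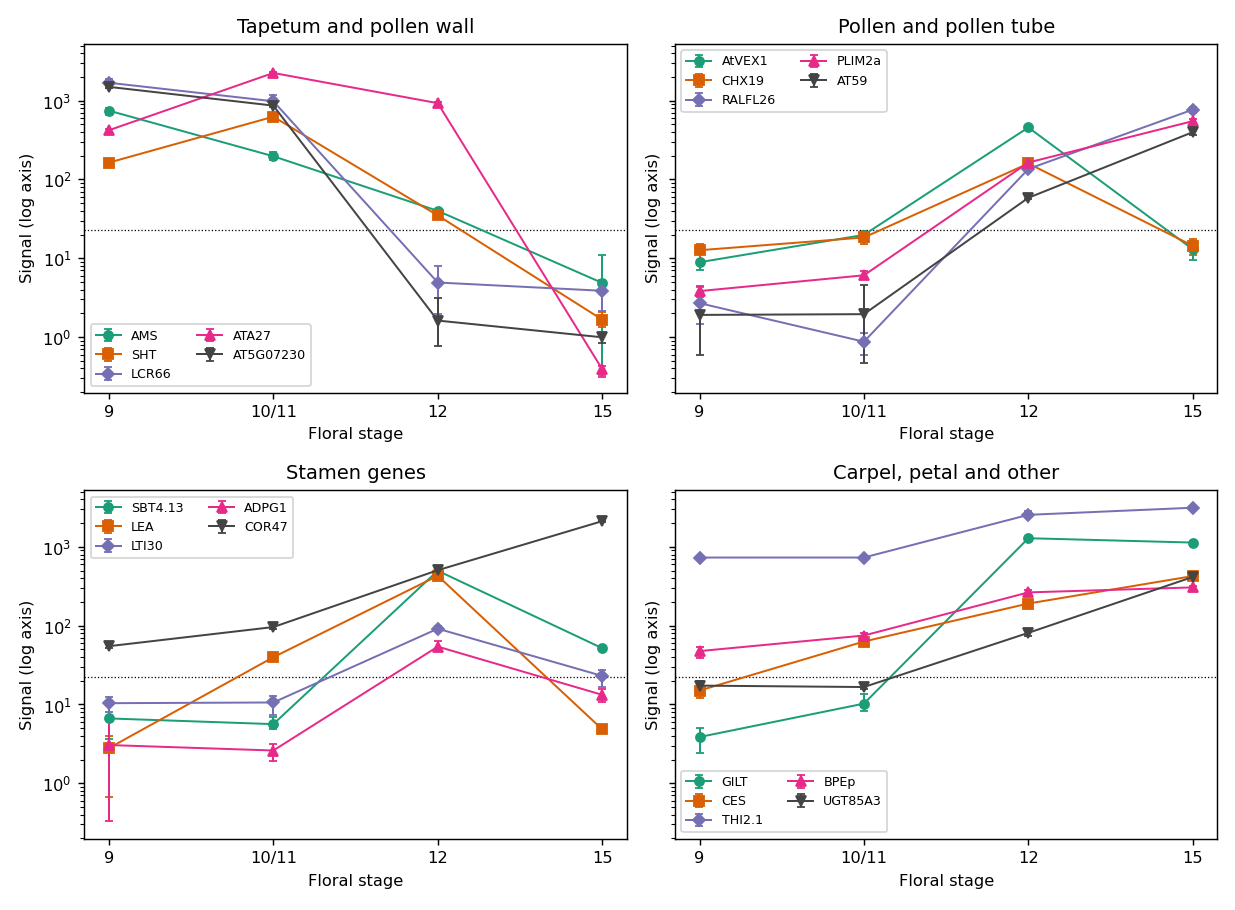
Mean signal (log axis) of whole flowers at stages 9, 10/11, 12 and 15 for named genes; bars span the lowest to the highest of 3 arrays, and the dotted line is the floor of 22.61. AtVEX1, CHX19, LEA and SBT4.13 peak at stage 12, PLIM2a, AT59 and RALFL26 are higher at stage 15, and ATA27 drops below the floor at stage 15.

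A smaller set of stamen genes rose without a signal in pollen. Of the 644 stamen-enriched probe sets that rose, 62 lay at or below the floor in all 3 pollen arrays. SBT4.13, a subtilase (a serine protease), had 497, 486 and 510.1 in stage 12 flowers, against 6.86, 4.85 and 5.17 in stage 10/11 flowers, at least 22-fold (log2 fold change 4.91, SE 0.16, adjusted p = 1.33e-33). It averaged 2268 ± 145 in stamens, 315 ± 6.64 in carpels and 5.48 ± 2.98 in pollen. Of the 8 tested subtilases it was the only one called, while 4.7% of the named genes tested rose. ADPG1, a polygalacturonase of anther and fruit opening, had 52.1, 47.1 and 63.4 in stage 12 flowers, against 3.16, 2.73 and 1.92 in stage 10/11 flowers, at least 2.40-fold. It averaged 502 ± 25.2 in stamens, was below the floor in every other organ and in pollen, and was below the floor again at stage 15. SWEET14, a sugar exporter, likewise averaged 917 ± 29.6 in stamens and was below the floor in pollen.

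5 of the 19 tested genes for dehydration proteins rose. Dehydrins and late embryogenesis abundant proteins protect cells during water loss. None fell, the list's median was 0.09, and 4.7% of the named genes tested rose. LEA, a dehydrin gene, had 439, 411 and 438 in stage 12 flowers, against 36.7, 38.2 and 44.4 in stage 10/11 flowers (log2 fold change 3.11, SE 0.16, adjusted p = 4.19e-24). It averaged 1192 ± 89.6 in stamens, 4.04 ± 1.30 in pollen and 4.84 ± 0.253 at stage 15. The last 2 means lie below the floor. The dehydrin gene LTI30, also below the floor in pollen, had 87.3, 99.8 and 87.5 in stage 12 flowers, against 11.7, 12.8 and 7.28 in stage 10/11 flowers, at least 4.05-fold. COR47, another dehydrin gene, had 487, 497 and 533 in stage 12 flowers, against 90.8, 90.1 and 107 in stage 10/11 flowers, and went on to 2121 ± 73.3 at stage 15. It averaged 2922 ± 244 in stamens and 64.3 ± 14.8 in pollen. In each of these the groups were far apart. LEA4-5 (1.36) and LEA18 (1.17) rose as well, LEA18 with 1 stage 12 array alone above the floor (23.4). The call on LEA18 was lost with a pseudocount equal to the floor (0.76) and with quantile normalization (0.92). COR15A (0.63) and DI19 (-0.20) were not called.

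Among SWEET sugar exporters, 4 of 15 rose and 1 fell, against 4.7% and 1.43% of the named genes tested. Besides AtVEX1, these were SWEET14 (log2 fold change 1.91), SWEET13 (1.46) and SWEET4 (1.42), and the gene that fell was SWEET8 (-1.30). SWEET4 averaged 341 ± 34.1, against 120.1 ± 6.51, with its highest organ mean in sepals (686 ± 64.9). SWEET13 averaged 93.8 ± 11.6, against 26.7 ± 1.73, with 535 ± 31.5 in stamens and 287 ± 25.5 in sepals. SWEET8, also called RPG1, exports sugar to developing pollen. It had 149, 205 and 201 in stage 12 flowers, against 451, 480.0 and 469 in stage 10/11 flowers, without overlap. SWEET11 (0.97) was not called, but passed without a pseudocount (1.01), with quantile normalization (1.06), with 75th percentile scaling (1.01) and without stage 10/11 replicate 3 (1.03). The nectary gene SWEET9 averaged 26.4 ± 2.76, against 9.07 ± 1.76, which is below the floor; the bound is at least 1.17-fold. It was not called (0.89), but passed without a pseudocount (1.56, adjusted p = 0.000175).

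Carpel genes were few among the increases, yet the largest fitted log2 fold change of all was of one of them. GILT, annotated as a lysosomal thiol reductase, had 1216, 1325 and 1323 in stage 12 flowers, against 9.03, 13.4 and 8.32 in stage 10/11 flowers. It was at least 57.0-fold higher, and its mean was 2596 ± 169 in carpels, 84.4 ± 7.76 in sepals and 3.66 ± 2.26 in stamens. CES, a transcription factor of the transmitting tract, had 188, 189 and 196 in stage 12 flowers, against 61.1, 63.7 and 64.1 in stage 10/11 flowers (log2 fold change 1.45). It averaged 759 ± 52.2 in carpels and was below the floor in the other organs. THI2.1, a thionin, which is a small antimicrobial peptide, had 2373, 2879.9 and 2401 in stage 12 flowers, against 726, 719 and 753 in stage 10/11 flowers (log2 fold change 1.78). Its highest organ mean was in carpels, at 4054 ± 205. The carboxypeptidase-like genes scpl47 (1.25) and scpl35 (1.04) were carpel-enriched too, the call on scpl35 being lost without stage 10/11 replicate 2 (0.98).

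The remaining carpel, style and ovule genes were not called. Of 15 tested, 2 rose (GILT and CES) and 0 fell, against 4.7% and 1.43% of the named genes tested. The list's median was 0.16. INO, a regulator of the outer integument of the ovule, averaged 72.9 ± 12.3 at stage 12 and 48.0 ± 1.78 at stage 10/11, less than 2-fold. SPT averaged a log2 fold change of -0.36 and BAN was below the floor in all 6 arrays. STOMAGEN, the locus next to GILT, averaged 92.1 ± 3.60, against 150.5 ± 13.9 (log2 fold change -0.64), not 2-fold. DD46, placed in the list of female gametophyte genes, fell to 45.1 ± 4.03 in stage 12 flowers, against 181 ± 12.0 in stage 10/11 flowers. In the organs of stage 12 it was detected in stamens and below the floor in carpels.

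Of the 46 sepal-enriched and 18 petal-enriched probe sets that rose, 1 gene of each is given here with 3 genes of other patterns. BPEp, a regulator of petal cell expansion, had 260.3, 252 and 281 in stage 12 flowers, against 66.7, 77.0 and 81.3 in stage 10/11 flowers (log2 fold change 1.68). Its means were 964 ± 48.6 in petals and 951 ± 12.3 in stamens, against 127 ± 16 in sepals and 56.6 ± 10.4 in carpels. EXPA8, an expansin enriched in petals (1565 ± 30.1), averaged 457 ± 22.2 in stage 12 flowers and 171 ± 15.4 in stage 10/11 flowers. Of 15 tested expansins 3 rose, the third being EXPB5 (1.62), against 4.7% of the named genes tested. The glycosyltransferase gene UGT76B1 was enriched in sepals (360.3 ± 45.4) and at least 3.44-fold higher. UGT85A3 was at least 3.59-fold higher, with similar means in petals (374 ± 19.3) and stamens (367 ± 17.6). The terpene synthase locus AT3G25810, of the floral volatile list, was above the floor in 2 of the 3 stage 12 arrays, with 20.9, 36.6 and 30.9, against 7.44, 4.74 and 5.03 at stage 10/11. Its call was lost with a pseudocount equal to the floor (log2 fold change 0.87), and its mean was 312 ± 9.94 at stage 15.

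Most tested tapetum and pollen wall genes fell. That list had 48 loci, of which 15 had a probe set for a single gene and 14 passed the filter on dim signals. Of these 14, 9 fell and 0 rose, against 1.43% and 4.7% of the named genes tested. The median was -1.38, against -0.04 for all probe sets tested. Without a pseudocount 5 of the 14 were called lower. The summed signal of the 14 was 1870 to 1982 in stage 12 arrays, against 7658 to 7836 in stage 10/11 arrays. It was 7076 to 7753 at stage 9 and 167 to 173 at stage 15. Of the 9 that fell, 8 were at or below the floor in all stage 15 arrays.

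The sizes of these decreases varied widely. AT5G07230 had 0.969, 3.1 and 0.78 in stage 12 flowers, against 879, 828 and 889.8 in stage 10/11 flowers, at least 38.3-fold lower. LCR66, a gene for a small cysteine-rich protein, had 7.86, 1.99 and 4.91 in stage 12 flowers, against 1163, 919 and 866 in stage 10/11 flowers, at least 43.5-fold lower. Both were below the floor in all dissected organs of stage 12, stamens included, and higher at stage 9 than at stage 10/11. SHT, which makes the hydroxycinnamoyl spermidines of the pollen coat, had 37.6, 32.9 and 34.3 in stage 12 flowers, against 585, 649 and 643 in stage 10/11 flowers (log2 fold change -3.78, SE 0.14, adjusted p = 1.75e-30). AMS, a transcription factor that directs tapetum development, had 41.3, 39.5 and 39.1 in stage 12 flowers, against 179, 223 and 189 in stage 10/11 flowers (log2 fold change -2.02). The call on AMS was lost without a pseudocount (adjusted p = 0.0648). In contrast, ATA27, a beta-glucosidase gene of the tapetum, stayed far above the floor, with 889, 949 and 949 in stage 12 flowers, against 2219.8, 2298 and 2225 in stage 10/11 flowers (log2 fold change -1.26), and its call was also lost without a pseudocount (adjusted p = 0.231). It averaged 812 ± 15.5 in stamens of stage 12.

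Further members of the list, given only by locus, were AT1G33430 (log2 fold change -2.23), AT1G75920 (-1.78) and AT1G06170 (-1.47). The calls on AT1G75920 (adjusted p = 0.0761) and AT1G06170 (adjusted p = 0.0954) were also lost without a pseudocount. The other 5 members tested were not called: AT2G31210 (-0.77), ROXY1 (-0.64), SPL (-0.62), ROXY2 (-0.28) and EMS1 (0.09). SPL, a regulator of the first sporogenous cells, averaged 26.5 ± 8.24, against 45.6 ± 0.263. EMS1, a receptor kinase that specifies the tapetum, averaged 195 ± 16.7, against 183 ± 22.5, and at stage 12 its highest organ mean was in carpels. One gene of the pollen list fell as well: sks18, a member of the SKU5-similar family, averaged 58.4 ± 3.45, against 222 ± 1.40, and was below the floor in pollen and detected in stamens (49.9 ± 4.83).

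The largest decreases among named genes were nearly all of loci without a name in the annotation used, and most were no longer detected. AT1G02813 had 10.2, 8.87 and 5.11 in stage 12 flowers, against 982, 844 and 891 in stage 10/11 flowers, at least 40.05-fold lower. AT5G13380 had 17.4, 8.70 and 12.8 in stage 12 flowers, against 693, 665 and 674 in stage 10/11 flowers, at least 30.0-fold lower. AT5G16920 had 5.92, 7.07 and 6.79 in stage 12 flowers, against 507, 411 and 448 in stage 10/11 flowers. In none of the 3 did a stage 12 array reach the floor. AT5G16960, AT3G20450, AT3G23770, AT1G20150, AT3G57620, AT1G76470, AT1G30020, AT4G29250 and AT5G48210 make up the rest of the 15 with AT5G07230, LCR66 and SHT, with log2 fold changes between -4.97 and -3.55. AT5G16960 differed in its spread: its stage 12 arrays read 6.18, 23.3 and 33.6, against 1088, 922 and 802 at stage 10/11.

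Most of the genes that fell were already detected at stage 9. The median over the 242 was 161 at that stage. Of the 242, 226 were above the floor in all stage 9 arrays, against 76.7% of all probe sets tested. At stage 15, 135 were at or below the floor in all arrays and 90 above it in all. Of all probe sets tested, 77.6% were above it in all stage 15 arrays. The stage 10/11 mean was the highest of the 4 stages for 137 and the stage 9 mean for 102. The stage 10/11 arrays took part in choosing these genes, so this order is a description. The flavonol glycosyltransferase UGT79B6 (AT5G54010) fell to below the floor in whole flowers of stage 12, against 72.8 ± 8.85 at stage 10/11, at least 3.22-fold lower, while its means were 87.7 ± 15.4 in dissected stamens and 161 ± 22.9 in pollen. Of 5 tested genes of phenylpropanoid and flavonoid synthesis, UGT79B6 and SHT fell, against 1.43% of the named genes tested. CHIL (-0.15), DFR (0.11) and UGT78D1 (-0.41) were not called. The carboxypeptidase-like gene scpl29 averaged 398 ± 21.0, against 1019.6 ± 56.4, and was detected in all organs.

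Transcripts encoded in the chloroplast were lower as a set. Of 69 genes 26 fell (37.7%) and 0 rose, against 1.43% and 4.7% of the named genes tested. The median log2 fold change was -0.74, and 67 of the 69 had a lower mean at stage 12, against 55.4% of all probe sets tested. psbB, for a chlorophyll-binding core protein of photosystem II, had 211, 171 and 150.2 in stage 12 flowers, against 1508, 1466 and 1575 in stage 10/11 flowers (log2 fold change -3.03, SE 0.32, adjusted p = 1.50e-11). rbcL, for the large subunit of Rubisco, had 192, 234 and 195 in stage 12 flowers, against 479.9, 514 and 447 in stage 10/11 flowers. The groups did not overlap in psbB or rbcL.

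No member of a short list of nuclear genes for photosynthesis was called. Of 16 tested, 0 rose and 0 fell in limma, against 4.7% and 1.43% of the named genes tested. In a list this short, 0 calls is near those shares. The list's median was -0.28. At an unadjusted p under 0.05, 11 were lower and 0 higher. Of all 17646 probe sets tested, 7647 passed that p in limma, in either direction. RCA, Rubisco activase, averaged 2449 ± 191, against 2860.0 ± 187 (limma adjusted p = 0.0929). LHCB4.1, a light-harvesting protein, averaged 1885 ± 61.5, against 2292 ± 44.7. It passed the adjusted p threshold (0.00276 in limma) but changed less than 2-fold. The summed signal of the 16 was 16547 to 17876 in stage 12 arrays, against 20089 to 21208 in stage 10/11 arrays. For the chloroplast-encoded genes it was 47932 to 50126 in stage 12 arrays, against 73664 to 75275 in stage 10/11 arrays. It was 61191 to 67063 at stage 9, whose arrays share the label series of stage 10/11, and 47041 to 52476 at stage 15, whose arrays share that of stage 12. These sums divide by label series as they do by stage, and the 2 cannot be told apart. Of 13 mitochondrial genes tested, 1 fell (cox1, log2 fold change -1.08), against 1.43% of the named genes tested. Their median was -0.40.

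Several groups showed no calls. Of the named genes tested, 4.7% rose and 1.43% fell, so 0 calls in groups this small is near those shares. Of 28 tested cell division genes 0 rose and 0 fell in limma, with a median of -0.27; at an unadjusted p under 0.05, 16 were lower and 1 higher. HTB2, a histone H2B, averaged 341 ± 29.7, against 501 ± 44.6, and TOPII, topoisomerase II, 147 ± 27.8, against 263 ± 10.9, both less than 2-fold. The list's summed signal was 3501 to 3654 in stage 12 arrays, against 4411 to 4535 in stage 10/11 arrays. Of 14 tested regulators of the floral meristem and organ boundaries none was called in limma, with a median of -0.05; 3 passed an unadjusted p under 0.05. The same held for 15 cytochrome P450 genes (median -0.03), of which 7 passed an unadjusted p under 0.05. Over all 17646 probe sets tested, 7647 passed that p in limma, in either direction. BPEp was the only call among 15 tested auxin genes and THI2.1 among 8 jasmonate genes. Both rose, as did 4.7% of the named genes tested. JMT, a jasmonate methyltransferase, had 164, 145 and 164 in stage 12 flowers, against 347, 278 and 326 in stage 10/11 flowers, and was not called (log2 fold change -0.96). It passed without a pseudocount (-1.01), with quantile normalization (-1.0) and without stage 10/11 replicate 2 (-1.04).

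**Figure D5:**
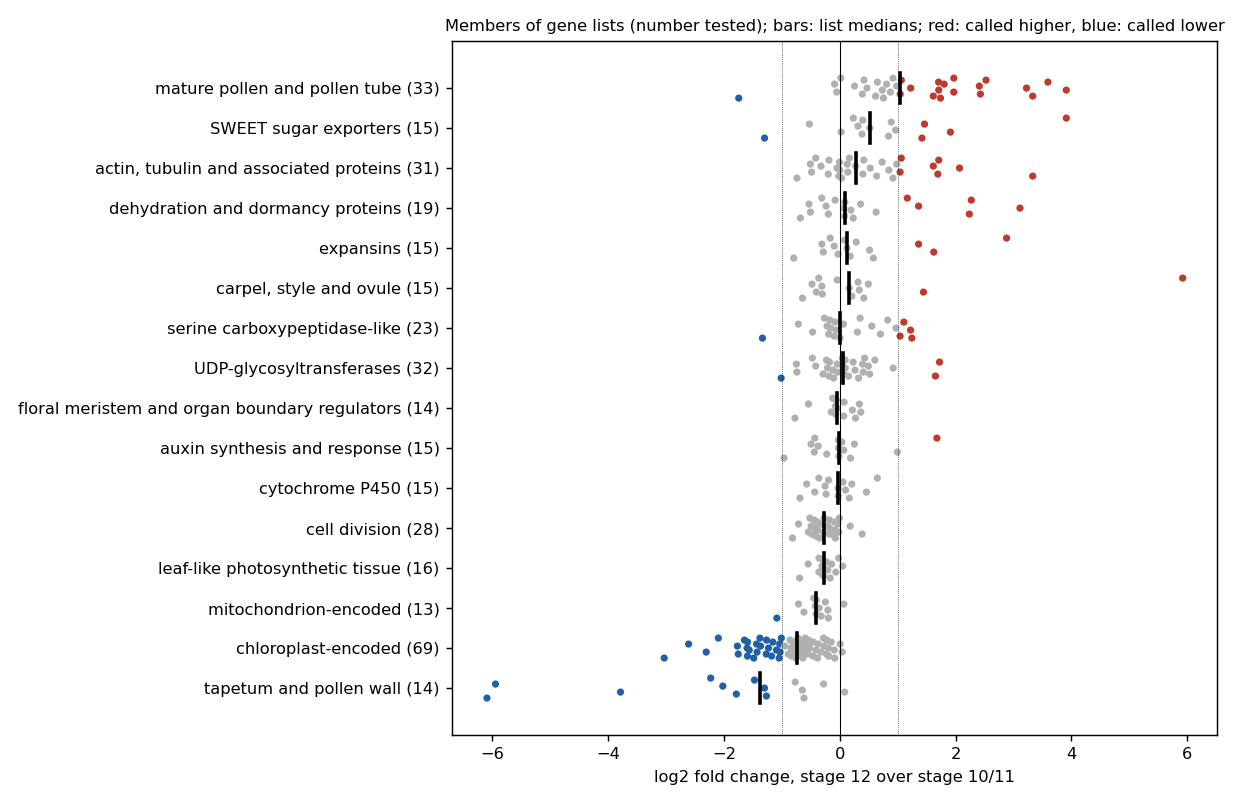
log2 fold change of stage 12 over stage 10/11 for each tested member of 16 gene lists (1 point per gene, number tested in brackets); black bars are list medians, red points were called higher, blue points called lower and grey points not called. The medians run from 1.04 for mature pollen and pollen tube genes to -1.38 for tapetum and pollen wall genes.

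Some genes that rose together lie side by side. In the order of protein-coding genes in the TAIR10.1 annotation, 3632 pairs of direct neighbours both had a named, tested probe set. The neighbours of genes that rose numbered 365, and 32 of them (8.77%) rose too, against 5.02% of all places in such pairs. These form 16 pairs. They include AT3G28770 with AT3G28780, AT3G28830 with AT3G28840, AT5G07420 with AT5G07430, AT3G01240 with AT3G01250, and RALFL25 with RALFL26. Of 91 neighbours of genes that fell, 6 (6.59%) fell too, against 1.25%; the 3 pairs were AT1G22010 with DD46, AT3G50570 with AT3G50580, and UND with AT4G12930. The pairs outside the naming rule were named after their values were seen.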

How the data were processed

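The table holds signal intensity that the authors deposited on a linear scale; MAS5 is named per the submitters' processing notes, and its version is not given in the sources used here. Of its 22810 probe sets, 64 are controls. A further 5100 exceeded the floor (22.61) in all 3 arrays of no group and were not tested. A model of log2(signal + 11.31) with a mean for each of the 22 groups was fitted over all 66 arrays (limma 3.58.1, R 4.3.3, eBayes with trend; residual df 44, prior df 10.6). Names were given to the 13513 probe sets paired with 1 gene, of which 13436 matched RefSeq; 503 pair with several and 8730 are unnamed. Where a gene had more than 1 probe set, the brightest is reported. "At least" folds divide the mean of the stage with all arrays above the floor by the floor, where all arrays of the other stage were at or below it. Named genes are the 15 largest changes in each direction, up to 5 called and 2 uncalled members of each list and the largest called member of each family; others were named after their values were seen. The members and lists were chosen with earlier results of these data known. The fit was tested on simulated data, and no arrays were identical. Precision is limited by 3 arrays per group. Alternatives varied the pseudocount, filter, scaling, arrays fitted, eBayes, a letter block and single arrays.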

Additional observations from a re-analysis of the deposited data

How the results depend on the processing

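Of the 65 genes called and named by rule, 61 kept their direction and call under every alternative that gave them a value. The exceptions were AMS and ATA27 without a pseudocount, AT3G25810 with a pseudocount equal to the floor (log2 fold change 0.87), and LEA18 with that pseudocount (0.76) and with quantile normalization (0.92). Calls on the further genes CHX20, ANX1, TUA1, TUB1, scpl35, AT1G75920 and AT1G06170 were lost under at least 1 alternative. JMT, SWEET9, SWEET11, AGL18 and AGL29, not called, passed under at least 1. The number of probe sets that rose was 1250 without a pseudocount and 626 with one equal to the floor, and the number that fell 347 and 179; the other settings gave 787 to 896 and 219 to 277. Leaving out 1 array gave 865 to 880 that rose and 240 to 247 that fell. Same-letter arrays did not deviate together (correlations -0.03, -0.11 and 0.05), and the sources do not say what the letter denotes; with it as a replicate block the counts were 865 and 242 and no call of a named gene changed. The number of probe sets enriched in 1 organ was 4078 and ran from 3449 to 4850. The share of increases among calls lay between 74.6% and 80.4%. The median of the carpel, style and ovule list turned to -0.063 with quantile normalization; the cause was not tested. Dim genes are limited by the floor, and folds against it are bounds.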
